A study of Mus musculus with 11 samples.

Results

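Spermatogonia of 15-month-old mice that carried the KIT receptor on their surface were compared with those that did not, by RNA-Seq of 2 KIT+ and 2 KIT- libraries. These 4 of the 11 libraries of the series were chosen by their sample labels alone, and the comparison covered all 18412 genes with at least 10 reads in at least 2 libraries. Every mouse was a male of the Oct4-GFP line B6;CBA-Tg(Pou5f1-EGFP)2Mnn/J, in which regulatory DNA of Pou5f1 (also called Oct4) switches on a green fluorescent protein. No other allele, agent or treatment is given for any group, and no wild-type or KIT-mutant group was sequenced. Testis cells were spun through Percoll and sorted for green fluorescence, then divided by an antibody to KIT. Both fractions were thus gated as Oct4-GFP+ and parted by the KIT gate. Markers of other cells also differed between them, as given below. The labels call the KIT- cells spermatogonial stem cells and the KIT+ cells spermatogonial progenitor cells. The same strain and sort gave the 8-month groups (2 KIT- libraries and 1 KIT+ library) and the 6-day groups (2 of each), which are used here only where the KIT effect is compared between ages. Ages are given as the sample labels state them. The study's results describe the aged and adult mice by ranges of age, while its methods give 15 months for the aged group and 6 months for the young group. The 8 months of the labels thus differs from the age in the methods.

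Spermatogonia are the mitotic germ cells at the base of the seminiferous tubule. A small share of them, the stem cells, renew themselves under signals such as GDNF, which acts through the receptors RET and GFRA1, and the rest pass through progenitor states to differentiating spermatogonia. That step follows a pulse of retinoic acid and is marked by the appearance of KIT, the receptor for stem cell factor, after which the cells divide in synchrony several times and then enter meiosis.

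The KIT gate was visible in the RNA. Kit, on chromosome 5 at 75970941 to 76052747 of the mm9 build, was at 9.66 and 7.88 RPKM (reads per kilobase of exon, scaled to library size) in the 2 KIT- libraries and at 67.8 and 62.8 RPKM in the 2 KIT+ libraries. The fractions did not overlap, and the fitted difference was 2.77 ± 0.12 on the log2(RPKM + 1) scale (standard error), a 6.81-fold higher value in KIT+ cells with an adjusted p of 6.3e-05. Here and below the test is limma with Benjamini-Hochberg adjustment over all genes tested, and a gene is called where the adjusted p is at most 0.05 and the fold change at least 1.5. Pou5f1, the gene behind the reporter, on chromosome 17 at 35642982 to 35647721, was at 44.9 and 70.2 RPKM in KIT- cells and at 9.05 and 3.88 RPKM in KIT+ cells, a log2 difference of -3.03 ± 0.35 (adjusted p 0.001). The transgene is driven by Pou5f1 sequence and its own reads were not analysed here. Read totals, recovered from the RPKM values, came to 39467203 and 33593663 reads for the KIT- libraries and 59205888 and 76756532 for the KIT+ libraries, so a fixed RPKM rests on fewer reads in KIT- cells.

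Markers of other cells were not spread evenly over the 4 libraries. The summed level of 40 spermatocyte and spermatid genes was 1165 and 627 RPKM in KIT- replicates 1 and 2 and 79.2 and 92.4 RPKM in KIT+ replicates 1 and 2, and that of 26 macrophage genes was 15.8, 5.42, 34.8 and 139.5 RPKM in the same order. KIT- replicate 1 and KIT+ replicate 2 therefore stood apart from their partners in these lists. Their part in the results below was not tested, beyond the counts given without each library. In sorted bulk samples fewer cells of a type and less RNA per cell cannot be told apart.

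Of the genes tested, 1243 were called higher in KIT+ cells (6.75%) and 2132 higher in KIT- cells (11.6%), together 18.3%. In all of these the 2 libraries of one fraction lay above both libraries of the other. Over all genes, 4708 (25.6%) had both KIT+ libraries above both KIT- libraries and 5692 (30.9%) the reverse. The KIT- side held the larger differences, with 270 genes at least 4-fold higher against 35 on the KIT+ side, and median log2 differences among called genes of -1.05 and 0.85. Its genes were also less abundant, with a median level of 5.06 RPKM in the higher fraction against 14.7 RPKM for genes higher in KIT+ cells, and 906 of them were under 1 RPKM in both KIT+ libraries. The median log2 difference of all genes tested was -0.04. The counts depend on the 11-library fit, which shares 1 estimate of spread over 6 groups. A fit to the 4 libraries alone called 0 genes in either direction (2097 and 2773 with an unadjusted p up to 0.05). The counts fell to 680 and 1256 without KIT+ replicate 1 and to 836 and 1370 without KIT+ replicate 2, and were 1581 and 2575 without KIT- replicate 1 and 1263 and 2341 without KIT- replicate 2.

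**Figure D1:**
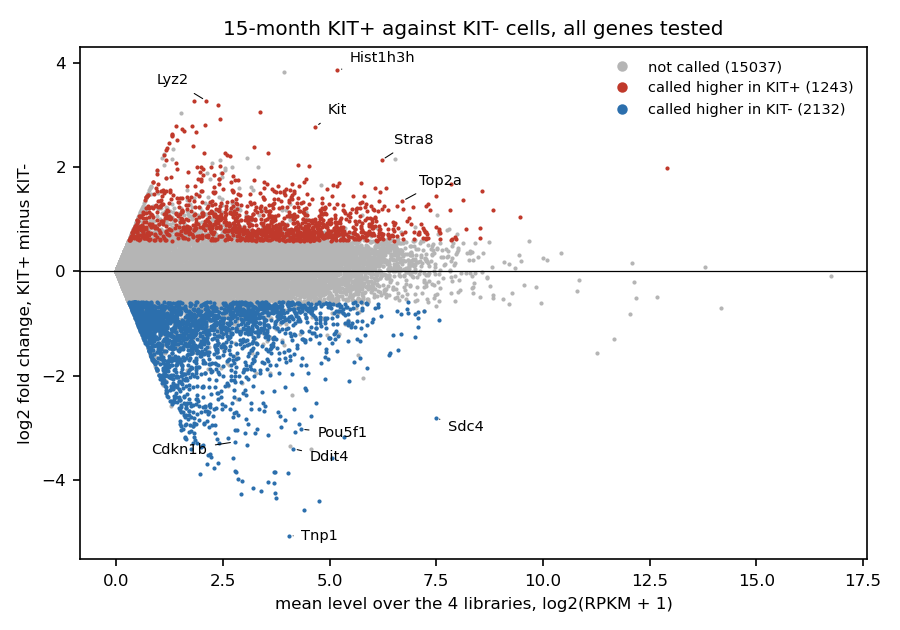
Each point is 1 of the 18412 genes tested, with its mean level over the 4 libraries on the log2(RPKM + 1) scale on the x axis and its log2 fold change, KIT+ minus KIT-, on the y axis. Red points are the 1243 genes called higher in KIT+ cells, which reach up to Hist1h3h (3.86), and blue points are the 2132 called higher in KIT- cells, which reach down to Tnp1 (-5.07).

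Besides Kit, the genes with the lowest p-values on the KIT+ side were mostly genes of the cell cycle. Ccnd1, cyclin D1, which carries cells through G1, was at 9.53 and 11.9 RPKM in KIT- cells and at 36.5 and 37.8 RPKM in KIT+ cells (3.28-fold higher). Top2a, the topoisomerase that untangles replicated chromosomes, was at 66.6 and 61.8 against 172 and 157 RPKM (2.54-fold). Plk1, a kinase of mitotic entry and spindle assembly, was at 9.18 and 8.49 against 29.0 and 26.7 RPKM (2.93-fold). None of these groups overlapped, and the replicates of each gene were far closer to each other than to the other fraction. The genes were chosen for lack of overlap and a low p, which favours both traits. Prim1, the catalytic subunit of DNA primase, was 2.60-fold higher, Wdhd1, a replication fork protein, 2.30-fold, and Ccng1, cyclin G1, 2.43-fold. Clip1, a protein of growing microtubule ends, was 2.61-fold higher and Arf2, a small GTPase of vesicle traffic, 2.72-fold. The pseudogene Gm13829 was listed at 0 in both KIT- libraries and at 2.82 and 4.81 RPKM in KIT+ cells.

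The genes with the lowest p-values on the KIT- side, leaving out SNORA17, were 4.86-fold to 10.05-fold higher in KIT- cells. Sdc4, syndecan-4, a heparan sulphate proteoglycan of the cell surface, was at 453 and 496 RPKM in KIT- cells and at 65.2 and 67.8 RPKM in KIT+ cells (7.04-fold higher in KIT- cells). Cdkn1b, which encodes the cyclin-dependent kinase inhibitor p27, was at 18.96 and 21.6 against 1.03 and 1.38 RPKM (9.67-fold). Ret, the GDNF receptor kinase, was at 20.3 and 25.02 against 2.37 and 1.86 RPKM (7.58-fold). All 3 were low in both KIT+ libraries, and their replicates lay close together beside the distance between fractions. These genes were chosen in the same way. Rragd, a Rag GTPase that brings mTORC1 to the lysosome, was 8.47-fold higher in KIT- cells. Rin2, an exchange factor for RAB5, was 10.05-fold higher, and Fgd5, an exchange factor for CDC42, 8.14-fold. Enc1, an actin-binding kelch protein, was 7.61-fold higher, Zfp462, a zinc finger protein, 7.09-fold, and Slc44a2, a choline transporter-like protein, 4.86-fold. The small nucleolar RNA gene SNORA17 on chromosome 12 was at 7.41 and 7.10 RPKM in KIT- cells and listed at 0 in both KIT+ libraries.

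**Figure D2:**
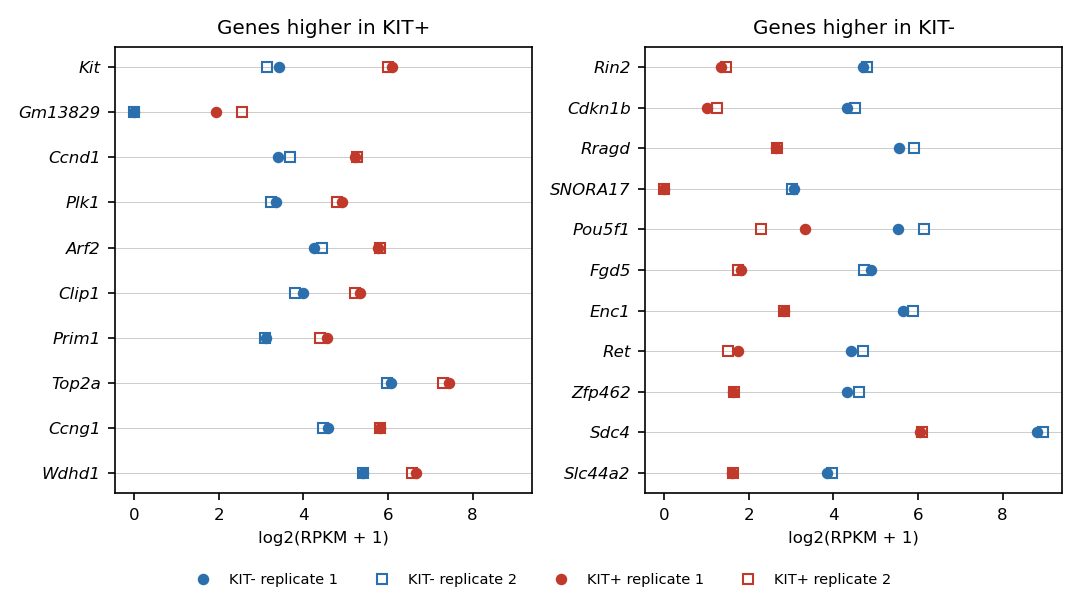
Levels of Kit, Pou5f1 and the genes with the lowest p-values in each direction, on the log2(RPKM + 1) axis, with 1 symbol per library (blue KIT-, red KIT+, filled circles replicate 1, open squares replicate 2). In every row the blue and the red symbols are apart, which was a condition for the genes chosen by p. Examples are Ccnd1 (9.53 and 11.9 against 36.5 and 37.8 RPKM) and Cdkn1b (18.96 and 21.6 against 1.03 and 1.38 RPKM).

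The functions higher in each fraction were read from 21 lists of genes by function. For comparison, 6.75% of all genes tested were called higher in KIT+ cells and 11.6% higher in KIT- cells. Genes of mitosis and DNA replication were called on the KIT+ side alone. Of 55 tested genes of mitosis and chromosome segregation, 28 were called higher in KIT+ cells and 0 higher in KIT- cells, with a median log2 difference of 0.65. Of 52 genes of DNA replication, 23 were called higher in KIT+ cells and 0 higher in KIT- cells, with a median of 0.47. Both counts of 0 are from limma, in which 1 mitosis and 2 replication genes were higher in KIT- cells with an unadjusted p up to 0.05, and the counts were also 0 with voom weights. The mitosis count was between 23 and 30 when any 1 library was left out, and the replication count was 14 without KIT+ replicate 1 and 20 to 22 without any other library.

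Among mitotic genes, Tpx2, which builds spindle microtubules with Aurora A, was at 16.7 and 16.0 RPKM in KIT- cells and at 44.9 and 44.9 RPKM in KIT+ cells, a log2 difference of 1.40 ± 0.11. Kif4, a chromosome-bound kinesin, was at 10.3 and 9.09 against 28.9 and 25.1 RPKM (1.39 ± 0.12). Both rose in the 2 KIT+ libraries without overlap. The list's summed level was 1406 and 1283 RPKM in KIT- cells and 2232 and 2154 RPKM in KIT+ cells. Not all spindle genes followed, and Hmmr, Pttg1 and Mad2l1, which were singled out after their values were seen, had log2 differences of 0.04, 0.13 and 0.12 and were not called.

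Among replication genes, Mcm2, a subunit of the replicative helicase, was at 43.3 and 49.0 RPKM in KIT- cells and at 105 and 103 RPKM in KIT+ cells (1.16 ± 0.11). Pcna, the sliding clamp of the replication fork, was at 45.3 and 52.7 against 122 and 115 RPKM (1.26 ± 0.12). Again the fractions were well apart. The summed level of the list was 1479 and 1525 RPKM in KIT- cells and 2418 and 2267 RPKM in KIT+ cells. Many histone genes are transcribed in step with DNA synthesis. Of 60 genes with Hist symbols, counted after the values were seen, 21 were called higher in KIT+ cells and 2 higher in KIT- cells. The shares of all genes were 6.75% and 11.6%. Symbols alone do not show that each gene is tied to DNA synthesis. Their summed level was 1959 and 1853 RPKM in KIT- cells against 4076 and 3611 RPKM in KIT+ cells. Histone genes exist in near-identical copies, so the split of reads among them is uncertain.

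Promoter sequence was examined for these genes because cell cycle genes are known to share short elements in front of their starts. The CHR, bound by the DREAM and MuvB complexes, and the CCAAT box, bound by NF-Y, are common in genes of G2 and mitosis, and E2F sites in genes of S phase. The windows run from 250 bases before to 50 bases after the start and come from RefSeq on GRCm38.p6, a later build than the mm9 of the files. The first 3 are the called mitosis genes with the lowest p that hold both elements, with each CCAAT box (CCAAT or its complement) and each CHR (TTTGAA or TTCGAA on either strand) in capitals, and the fourth is the called replication gene with the lowest p that holds an E2F site (letters below), also in capitals, where the first pair of matches overlap. Top2a is chr11:99024140-99024439 on the minus strand, Plk1 chr7:122159185-122159484 on the plus strand, Kif4 chrX:100625815-100626114 on the plus strand and Mcm6 chr1:128359656-128359955 on the minus strand.
Top2a: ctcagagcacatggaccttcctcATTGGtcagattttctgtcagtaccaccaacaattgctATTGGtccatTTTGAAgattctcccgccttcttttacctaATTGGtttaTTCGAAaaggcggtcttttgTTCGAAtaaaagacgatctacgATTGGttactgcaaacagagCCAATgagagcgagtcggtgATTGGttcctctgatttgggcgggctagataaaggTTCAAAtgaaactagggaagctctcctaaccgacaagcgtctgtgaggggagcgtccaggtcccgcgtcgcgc
Plk1: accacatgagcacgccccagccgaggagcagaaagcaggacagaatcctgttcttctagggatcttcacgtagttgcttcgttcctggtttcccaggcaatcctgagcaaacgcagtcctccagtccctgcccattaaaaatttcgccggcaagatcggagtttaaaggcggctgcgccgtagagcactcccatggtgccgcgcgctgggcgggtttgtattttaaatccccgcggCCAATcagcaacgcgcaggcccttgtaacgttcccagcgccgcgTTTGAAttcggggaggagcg
Kif4: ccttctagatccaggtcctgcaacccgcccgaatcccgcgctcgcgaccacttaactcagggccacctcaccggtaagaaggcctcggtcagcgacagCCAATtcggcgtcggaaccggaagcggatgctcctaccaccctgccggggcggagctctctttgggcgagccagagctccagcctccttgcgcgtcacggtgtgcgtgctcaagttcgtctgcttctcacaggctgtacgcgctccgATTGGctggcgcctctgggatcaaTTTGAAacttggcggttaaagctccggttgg
Mcm6: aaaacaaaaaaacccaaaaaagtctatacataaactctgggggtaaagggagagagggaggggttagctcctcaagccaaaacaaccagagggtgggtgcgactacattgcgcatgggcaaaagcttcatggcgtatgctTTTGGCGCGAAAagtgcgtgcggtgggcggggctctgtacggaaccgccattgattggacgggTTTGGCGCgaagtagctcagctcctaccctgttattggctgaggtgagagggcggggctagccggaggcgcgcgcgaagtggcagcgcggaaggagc

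In the Plk1 window the CCAAT box began 14 bases before the start and the CHR 31 bases after it, and in the Kif4 window the nearest CCAAT box began 5 bases before the start and the CHR 20 bases after it. The Top2a window held 6 CCAAT boxes and 4 CHR matches. Of the 28 called mitosis genes 23 had windows, 24 in all, of which 87.5% held a CCAAT box, 91.7% a CHR and 83.3% both. Over all 32851 promoter windows of this length the shares were 37.4%, 19.23% and 7.52%. Of the 27 mitosis genes that were not called 20 had windows, 22 in all, and their shares were 77.3%, 72.7% and 68.2%. Called and uncalled members thus both stood above all promoters. The shares were somewhat higher among the called members, and that difference was not tested. E2F letters (TTTGGCGC, TTTCCCGC, TTTGCCGC or TTTCGCGC on either strand, which may overlap each other) were in 34.6% of the 26 windows of called replication genes and 33.3% of the 24 windows of those not called, against 2.26% of all promoters. Over the windows of all genes called higher in KIT+ cells the E2F share was 7.14%, and over those higher in KIT- cells 2.74%. A match of letters is not a bound site.

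Of 36 tested cyclins of G1, their kinases, inhibitors and E2F factors, 8 were called higher in KIT+ cells (22.2%, against 6.75% of all genes) and 6 higher in KIT- cells (16.7%, against 11.6%). The KIT+ side held 4 E2F genes, Ccnd1, Cdk2 and the E cyclins. Cdk2 was 2.41-fold higher (22.1 and 27.7 against 66.2 and 56.6 RPKM), and its partners Ccne1 and Ccne2, which start S phase, were higher by 2.68-fold and 2.74-fold. On the KIT- side, beside Cdkn1b, Cdkn1c, which encodes the inhibitor p57, was at 25.2 and 19.5 RPKM in KIT- cells and at 10.1 and 9.35 RPKM in KIT+ cells. Btg2, an antiproliferative gene, was 1.51-fold and Rbl2, of the retinoblastoma family, 2.14-fold higher in KIT- cells. Rb1 and Cdk4, named after their values were seen, complete that side, and Cdk4, the kinase partner of cyclin D, was at 59.8 and 70.3 against 50.03 and 36.3 RPKM with an adjusted p of 0.049, which was 0.051 without KIT- replicate 1, 0.16 without KIT- replicate 2 and 0.25 without KIT+ replicate 2. Leaving out KIT+ replicate 1 reduced the counts to 4 and 3. Btg2 (adjusted p 0.12) and Rbl2 (0.17) were not called without it, nor without KIT+ replicate 2 (0.12 and 0.088). Btg2 was not called without KIT- replicate 2 either (0.086), nor Rbl2 without KIT- replicate 1 (0.053).

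Genes of differentiating spermatogonia were higher in KIT+ cells, 12 of 22 tested (54.5%, against 6.75% of all genes). In KIT- cells 0 were called higher (limma, 3 with an unadjusted p up to 0.05), and the median was 0.74. Stra8, which answers retinoic acid and is needed to enter meiosis, was at 29.0 and 41.3 RPKM in KIT- cells and at 170 and 141 RPKM in KIT+ cells, a log2 difference of 2.13 ± 0.22. Uhrf1, which brings DNMT1 to replicated DNA, was at 21.03 and 21.5 against 41.1 and 39.2 RPKM (0.89 ± 0.08). Hells, a chromatin remodeller that aids DNA methylation, was at 38.7 and 39.8 against 96.3 and 94.4 RPKM (1.26 ± 0.11). All 3 were higher in both KIT+ libraries than in either KIT- library. Ccdc36, whose product prepares chromosomes for meiotic breaks, was at 10.1 and 11.9 against 24.1 and 23.8 RPKM. Dnmt3b, a de novo DNA methyltransferase, was 1.55-fold higher in KIT+ cells, and was not called without KIT+ replicate 1 (adjusted p 0.062) or, by its fold change, without KIT- replicate 1 (log2 difference 0.51). Elavl2 and Elavl3, RNA-binding proteins, had log2 differences of 0.45 ± 0.22 and 0.56 ± 0.13 and were not called. The count was 8 to 14 when any 1 library was left out. Kit, Stra8, Dnmt3b, Mbnl3, Elavl2 and Elavl3 of this list are genes the study itself singled out on these samples, so they are not independent evidence of its direction. Kit also encodes the receptor by which the fractions were parted, so its call, counted in the 12, follows from the sort.

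Retinoic acid genes also leaned to the KIT+ side, 7 of 22 (31.8%, against 6.75% of all genes), with 1 on the KIT- side (4.55%, against 11.6%). Cyp26b1, an enzyme that breaks retinoic acid down, was low in both fractions, at 0.617 and 0.388 RPKM in KIT- cells and at 2.47 and 2.98 RPKM in KIT+ cells. Rarb, a receptor gene that retinoic acid induces, was at 0.3001 and 0.0181 against 1.74 and 1.36 RPKM. Crabp1, a carrier of retinoic acid in the cytoplasm, was at 31.2 and 12.1 against 64.8 and 66.7 RPKM, with the 2 KIT- libraries far apart. Rarg, the receptor of undifferentiated spermatogonia, went the other way, at 9.78 and 11.9 RPKM in KIT- cells and at 6.22 and 6.22 RPKM in KIT+ cells. The count of 7 became 3 without either KIT+ library. Crabp1 and Rarg then had adjusted p-values of 0.077 and 0.085 (without replicate 1) and 0.076 and 0.078 (without replicate 2), and Rarg had 0.058 without KIT- replicate 2.

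Of 40 meiosis genes, 10 were higher in KIT+ cells (25%, against 6.75% of all genes) and 6 higher in KIT- cells (15.0%, a share close to the 11.6% of all genes). Higher in KIT+ cells were Tex11, an X-linked gene of synapsis and crossing over, at 85.6 and 74.0 RPKM in KIT- cells and at 158 and 154 RPKM in KIT+ cells, and Smc1b, a subunit of meiotic cohesin, at 142 and 82.4 against 231 and 264 RPKM. Of those higher in KIT- cells, several act on meiotic breaks and crossovers. Msh4, a crossover protein, was at 4.15 and 3.997 RPKM in KIT- cells and at 1.49 and 0.887 RPKM in KIT+ cells. Spo11, which makes the meiotic breaks, was at 2.17 and 2.28 against 0.719 and 0.834 RPKM, Hfm1, a helicase of crossing over, at 7.16 and 4.52 against 2.06 and 2.47 RPKM, and Sycp2, of the synaptonemal complex, at 34.8 and 23.7 against 14.1 and 16.0 RPKM. The fractions did not overlap in any of these. Spermatocyte and spermatid genes summed to 1165 and 627 RPKM in the same KIT- libraries, and their part in the KIT- side of this list was not tested. Without KIT+ replicate 1 the counts were 6 and 1, and Spo11, Hfm1 and Sycp2 were not called (adjusted p 0.056, 0.078 and 0.086). Without KIT+ replicate 2 the counts were 4 and 4, and Smc1b was not called (0.059).

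Genes that define stem cells were called on the KIT- side alone. Of 34 tested regulators of the GDNF pathway and of stem cells, 18 were called higher in KIT- cells and 0 higher in KIT+ cells (limma, 3 with an unadjusted p up to 0.05, and 1 with voom weights), with a median of -0.67. Zbtb16, which encodes PLZF, a factor that holds spermatogonia undifferentiated, was at 102 and 119 RPKM in KIT- cells and at 31.6 and 27.9 RPKM in KIT+ cells (-1.86 ± 0.12). Etv5, a GDNF-responsive factor needed for self-renewal, was at 5.24 and 6.28 against 1.16 and 0.822 RPKM (-1.76 ± 0.16). Tspan8, a surface tetraspanin, was at 14.3 and 10.4 against 0.544 and 0.916 RPKM (-2.94 ± 0.21). Each fell in both KIT+ libraries. Id4, an inhibitor of differentiation used to mark stem cells, was low and uneven, at 3.46 and 1.60 RPKM in KIT- cells and at 0.275 and 0.235 RPKM in KIT+ cells (-1.44 ± 0.27). The other 16 members were not called, among them Sall4 and Bmi1, named after their values were seen, with log2 differences of -0.32 ± 0.26 and 0.45 ± 0.16. The count was 13 to 19 when any 1 library was left out. Pou5f1, Ret, Nanos2 and Id4 were singled out by the study on these samples and are not independent evidence of the direction.

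Progenitor genes were on the KIT- side too, 12 of 18 against 1, with a median of -1.03. Ddit4, an inhibitor of mTORC1, was at 56.9 and 56.3 RPKM in KIT- cells and at 4.82 and 4.09 RPKM in KIT+ cells (-3.40 ± 0.22). Upp1, a uridine phosphorylase, was at 46.5 and 79.5 against 8.09 and 8.02 RPKM (-2.77 ± 0.24). Igfbp6, an IGF-binding protein, was at 13.2 and 15.0 against 0.395 and 0.246 RPKM (-3.52 ± 0.31). The KIT+ libraries were low in all 3. Tcl1, an AKT coactivator, was at 5.14 and 10.6 against 0.540 and 0.706 RPKM. The exception was Lin28b, a let-7 inhibitor, at 8.17 and 7.06 RPKM in KIT- cells and at 13.4 and 15.8 RPKM in KIT+ cells. Although the labels name the KIT+ cells progenitors, the listed progenitor genes were mostly higher in the cells labelled stem cells. The count was 9 to 12 when any 1 library was left out. Ddit4 and Tcl1 were singled out by the study on these samples and are not independent evidence of the direction.

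Another list held genes of the germ granule and of the piRNA pathway, which silences transposons in germ cells. Of its 26 genes 11 were called higher in KIT- cells (42.3%, against 11.6% of all genes). In KIT+ cells 0 were called higher (limma, 2 with an unadjusted p up to 0.05), and the median was -0.51. The list's summed level differed little, at 2012 and 2101 RPKM in KIT- cells and 1926 and 1738 RPKM in KIT+ cells. Piwil4, the nuclear PIWI protein MIWI2, was at 11.8 and 17.5 RPKM in KIT- cells and at 2.84 and 4.09 RPKM in KIT+ cells. Tdrd5, a tudor protein of germ granules, was at 13.6 and 14.8 against 3.94 and 4.71 RPKM. Nanos3, an RNA-binding regulator, was at 17.0 and 21.8 against 1.71 and 1.25 RPKM, and Nanos2, a guardian of the stem cell state, was at 4.45 and 5.50 against 0.0235 and 0.00905 RPKM. All were clear of overlap. Nanos2 was singled out by the study on these samples and is not independent evidence of the direction. The count was 7 without KIT+ replicate 1 and 6 without KIT+ replicate 2.

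**Figure D3:**
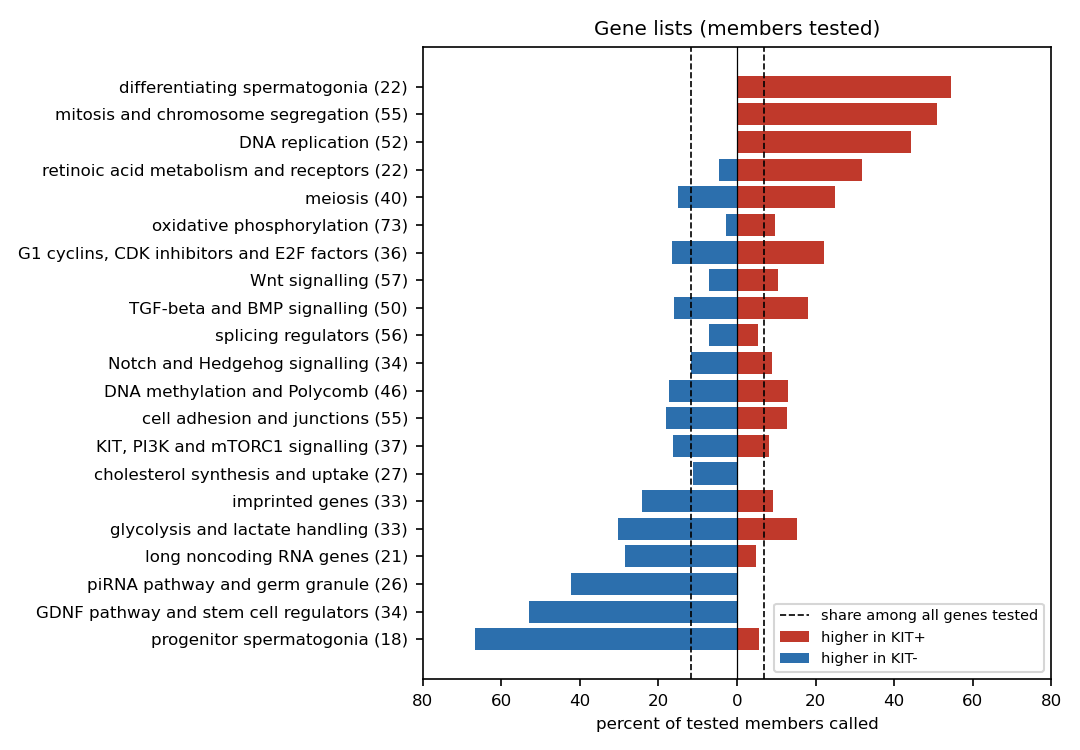
Bars give the percent of tested members of each function list called higher in KIT+ cells (red, to the right) or higher in KIT- cells (blue, to the left), with the number tested in parentheses, and dashed lines mark 6.75% and 11.6%, the shares among all genes. Mitosis (50.9%), DNA replication (44.2%) and differentiating spermatogonia (54.5%) reach furthest right, and progenitor genes (66.7%) and GDNF pathway and stem cell regulators (52.9%) furthest left.

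Of 37 members of KIT, PI3K and mTORC1 signalling, 3 were called higher in KIT+ cells (8.11%, against 6.75% of all genes) and 6 higher in KIT- cells (16.2%, against 11.6%). On the KIT- side, Pik3cd, a catalytic subunit of PI3K, was at 13.7 and 18.7 RPKM in KIT- cells and at 4.24 and 3.16 RPKM in KIT+ cells, and Pik3ca, another, at 9.42 and 10.2 against 4.59 and 4.08 RPKM. So was Sesn1, a sestrin that restrains mTORC1, at 18.1 and 21.4 against 5.95 and 6.98 RPKM. On the KIT+ side, Socs1, a feedback inhibitor of cytokine receptors, was at 2.91 and 3.07 against 6.13 and 6.38 RPKM, with an adjusted p of 0.04 that rose to between 0.079 and 0.15 when any 1 library was left out.

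Of 33 genes of glycolysis and lactate handling, 10 were called higher in KIT- cells (30.3%, against 11.6% of all genes) and 5 higher in KIT+ cells (15.2%, against 6.75%). Slc2a3, the glucose transporter GLUT3, was at 31.3 and 22.4 RPKM in KIT- cells and at 3.45 and 3.70 RPKM in KIT+ cells (6.01-fold higher in KIT- cells). Pdk1, which shuts pyruvate out of the mitochondrion, was at 12.8 and 15.1 against 3.70 and 3.23 RPKM. Ldha and Ldhb, the lactate dehydrogenase subunits, were at 13.1 and 12.8 against 1.14 and 1.35 RPKM and at 15.0 and 10.2 against 1.66 and 2.76 RPKM. All 4 were low in both KIT+ libraries. On the KIT+ side were Hk2, a hexokinase, 1.67-fold, Slc16a1, the monocarboxylate transporter MCT1, 1.97-fold, Pdhb, a pyruvate dehydrogenase subunit, 1.64-fold, and Gapdh 1.65-fold. Ldha and Gapdh have many near-identical pseudogenes, so their reads are uncertain.

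Oxidative phosphorylation had a positive median of 0.25 over 73 genes, 59 with a value above 0, but 7 calls higher in KIT+ cells and 2 higher in KIT- cells, 9.59% and 2.74% against 6.75% and 11.6% of all genes. At 8 months the median of the same list was -0.17. Ndufa4 was at 126 and 92.3 RPKM in KIT- cells and at 319 and 274 RPKM in KIT+ cells. Atp5f1 and Atp5h, subunits of ATP synthase, were 2.44-fold and 2.92-fold higher in KIT+ cells, with Atp5h at 14.1 and 6.28 against 28.7 and 30.7 RPKM. Ndufb11, a complex I subunit on the X chromosome, went the other way, at 24.9 and 23.6 RPKM in KIT- cells and at 10.6 and 9.63 RPKM in KIT+ cells, as did Cox7b, 1.76-fold. The KIT+ count was 3 without KIT+ replicate 1, 12 without KIT- replicate 2 and 11 under a median-of-ratios scaling, and Sdha (1.53-fold higher in KIT+ cells) and Cox7b were not called without KIT+ replicate 1 (adjusted p 0.085 and 0.053). Sdha also fell under the fold limit without KIT- replicate 1 (log2 difference 0.50). Of 27 cholesterol genes 3 were called, all higher in KIT- cells (11.1%), while the list's median was 0.12 and 17 of the 27 had a value above 0. Among them were the regulators Srebf2, 1.79-fold, and Insig2, 1.72-fold, and neither was called without KIT+ replicate 2 (adjusted p 0.08 and 0.13), when the cholesterol count was 0. Without KIT- replicate 2 the cholesterol counts were 1 higher in KIT- cells and 5 higher in KIT+ cells.

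Of 46 genes of DNA methylation and Polycomb, 6 were higher in KIT+ cells (13.0%, against 6.75% of all genes) and 8 higher in KIT- cells (17.4%, against 11.6%), with a median of -0.01. Dnmt1, the maintenance methyltransferase, was at 118 and 108 RPKM in KIT- cells and at 203 and 188 RPKM in KIT+ cells, on the same side as Uhrf1 and Hells above. The Polycomb partners Mtf2 and Pcgf6 were higher in KIT- cells, Mtf2 at 59.6 and 67.2 against 30.7 and 30.4 RPKM and Pcgf6 at 10.3 and 14.2 against 5.35 and 4.30 RPKM. Dnmt3l, the cofactor of de novo methylation, was at 1.19 and 1.52 RPKM in KIT- cells and at 0.232 and 0.153 RPKM in KIT+ cells. Phf1 was 1.64-fold higher in KIT- cells, and not called without KIT+ replicate 1 (adjusted p 0.058). The KIT- count was 3 without KIT+ replicate 1 and 5 without KIT+ replicate 2.

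Signalling lists held calls in both directions. In Notch and Hedgehog signalling (3 of 34 higher in KIT+ cells, 8.82%, and 4 higher in KIT- cells, 11.8%, against 6.75% and 11.6% of all genes) Ptch1, the Hedgehog receptor and a target of the pathway, was at 15.5 and 20.2 RPKM in KIT- cells and at 0.840 and 1.27 RPKM in KIT+ cells, and Lfng, which modifies Notch with sugar, was at 2.51 and 1.40 against 10.3 and 9.14 RPKM. These were the members with clear separation. Gli2, Dll1, Mfng, Boc and Ihh were low, at or below 3.02 RPKM in every library, and none was called without KIT+ replicate 1 (adjusted p 0.083, 0.22, 0.066, 0.067 and 0.16). The counts were 1 and 1 without KIT+ replicate 1, 2 and 1 without KIT+ replicate 2, 5 and 4 without KIT- replicate 1 and 2 and 3 without KIT- replicate 2.

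In TGF-beta and BMP signalling 9 of 50 were higher in KIT+ cells (18.0%, against 6.75% of all genes) and 8 higher in KIT- cells (16.0%, against 11.6%). Fst, follistatin, which binds activins, was at 17.4 and 20.99 RPKM in KIT- cells and at 4.55 and 4.21 RPKM in KIT+ cells, Smad3 at 9.84 and 14.7 against 3.87 and 3.79 RPKM, and Tgfbr3, a coreceptor, at 2.62 and 3.93 against 0.354 and 0.679 RPKM. On the KIT+ side Skil, a SMAD repressor, was 1.62-fold higher and Tgfbr1 1.67-fold, with Smad4 at 1.54-fold. Lefty2, an inhibitor of Nodal, was at 0.146 and 0 RPKM in KIT- cells and at 0.718 and 0.903 RPKM in KIT+ cells. The counts were 3 and 4 without KIT+ replicate 1 and 5 and 4 without KIT+ replicate 2. Smad4 was not called without KIT+ replicate 1 (adjusted p 0.052) or KIT- replicate 2 (log2 difference 0.58), nor Tgfbr1 without KIT+ replicate 2 (adjusted p 0.067) or KIT- replicate 2 (log2 difference 0.52).

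In Wnt signalling 6 of 57 were higher in KIT+ cells (10.5%, against 6.75% of all genes) and 4 higher in KIT- cells (7.02%, against 11.6%). Receptors took both sides. Lrp5, a Wnt coreceptor, was at 6.49 and 4.82 RPKM in KIT- cells and at 13.9 and 13.3 RPKM in KIT+ cells, and Lgr4, the R-spondin receptor, at 3.59 and 4.14 against 9.39 and 8.35 RPKM. Fzd2, a frizzled receptor, was at 2.28 and 2.50 against 0.498 and 0.212 RPKM, and Dkk3, of the dickkopf family, at 7.40 and 7.55 against 2.52 and 1.26 RPKM. The counts were 3 and 2 without KIT+ replicate 1. Fzd9, Frzb and Tcf7l2, at or below 1.75 RPKM in every library, lost their calls without either KIT+ library (adjusted p 0.062 to 0.17), and Axin1 (1.63-fold higher in KIT+ cells) fell under the fold limit without KIT- replicate 1 (log2 difference 0.54).

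Of 55 genes of cell adhesion and junctions, 7 were higher in KIT+ cells (12.7%, against 6.75% of all genes) and 10 higher in KIT- cells (18.2%, against 11.6%). Epcam, an epithelial adhesion molecule, was at 41.9 and 41.8 RPKM in KIT- cells and at 123 and 122 RPKM in KIT+ cells, and Itgb1, the beta1 integrin, at 49.8 and 42.7 against 95.1 and 93.3 RPKM. Cdh2, N-cadherin, was 1.88-fold higher in KIT+ cells. Of tight junction genes called higher in KIT- cells, F11r (JAM-A) was at 35.1 and 38.4 against 11.02 and 8.71 RPKM and Ocln, occludin, at 7.23 and 7.16 against 2.23 and 1.81 RPKM. Itgb5, another integrin, was 2.15-fold higher in KIT- cells and Actn1, alpha-actinin, 2.29-fold. Alcam (1.52-fold higher in KIT+ cells) was not called without either KIT+ library (adjusted p 0.068 and 0.062) or KIT- replicate 2 (log2 difference 0.53), and the KIT+ count was 3 without KIT+ replicate 1 and 4 without KIT+ replicate 2.

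Of 56 splicing regulators 3 were called higher in KIT+ cells (5.36%) and 4 higher in KIT- cells (7.14%), against 6.75% and 11.6% of all genes. The muscleblind family, which steers alternative exons, divided. Mbnl2 was at 14.2 and 15.3 RPKM in KIT- cells and at 1.57 and 1.95 RPKM in KIT+ cells, Mbnl1 at 4.06 and 3.81 against 1.43 and 2.08 RPKM, and Mbnl3 at 2.39 and 2.82 against 5.18 and 5.03 RPKM. Each of the 3 kept its direction under the other scalings, with log2 differences of -2.46 and -2.65, -0.80 and -0.94, and 0.81 and 0.77 under median-of-ratios scaling and without mitochondrial genes. Bicc1, an RNA-binding protein, was at 4.77 and 5.93 against 0.851 and 0.595 RPKM, and Rod1, of the PTB family, 2.44-fold higher in KIT- cells. Rbm20 was not called (-0.49 ± 0.16). Mbnl1 was not called without KIT+ replicate 1 (adjusted p 0.096), Mbnl3 and Khdrbs1 (1.57-fold higher in KIT+ cells) without either KIT+ library (0.053 to 0.07), Khdrbs1 without KIT- replicate 2 (log2 difference 0.46), nor Zcchc24 (1.81-fold) without KIT+ replicate 2 (0.093). The counts were 12 and 7 without KIT- replicate 1 and 0 and 4 without KIT+ replicate 2. The muscleblind genes, Bicc1, Rbm20 and the Elavl genes were singled out by the study on these samples.

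Among 33 imprinted genes, which are expressed from 1 parental copy, 3 were higher in KIT+ cells (9.09%, against 6.75% of all genes) and 8 higher in KIT- cells (24.2%, against 11.6%). Grb10, an adaptor that dampens growth receptors, was at 14.6 and 22.2 RPKM in KIT- cells and at 62.3 and 55.5 RPKM in KIT+ cells. Peg10 was at 6.74 and 4.97 against 1.54 and 2.19 RPKM, Slc38a4, an amino acid transporter, at 4.48 and 5.28 against 1.23 and 0.818 RPKM, and Phlda2 at 3.08 and 6.17 against 0.714 and 0.413 RPKM. Peg12 and Plagl1 were at or below 1.10 RPKM in every library, and Peg12, Plagl1 and Phlda2 were not called without KIT+ replicate 2 (adjusted p 0.054, 0.075 and 0.058), nor Plagl1 without KIT+ replicate 1 (0.054). The counts were 2 and 4 without KIT+ replicate 1, 1 and 5 without KIT+ replicate 2 and 3 and 5 without KIT- replicate 2.

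Of 21 long noncoding RNA genes 6 were higher in KIT- cells (28.6%, against 11.6% of all genes) and 1 in KIT+ cells (4.76%, against 6.75%). 1110050K14Rik was at 3.06 and 4.41 RPKM in KIT- cells and at 0.250 and 0.0878 RPKM in KIT+ cells, and Wbscr25 at 4.92 and 2.45 against 0.0558 and 0.0677 RPKM. Mir17hg, host of the miR-17 cluster of growth-promoting microRNAs, was at 8.78 and 5.10 against 2.61 and 2.98 RPKM. The counts were 2 and 1 without KIT+ replicate 1 and 3 and 0 without KIT+ replicate 2, when Gt(ROSA)26Sor (2.20-fold higher in KIT+ cells) had an adjusted p of 0.059. Mir17hg and Snhg11 (1.81-fold higher in KIT- cells) were not called without replicate 1 (0.085 and 0.054) or replicate 2 (0.054 and 0.053). Over gene classes, 7 of 695 lincRNA genes were higher in KIT+ cells and 44 higher in KIT- cells, against 1182 and 1933 of 15858 protein-coding genes. The X chromosome had 9.51% of 778 tested genes higher in KIT+ cells and 11.95% higher in KIT- cells, where the 19 autosomes ranged from 5.26% to 8.60% and from 8.97% to 14.5%.

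Immediate-early genes, which can rise within minutes of tissue handling, were more often higher in KIT- cells, 7 of 26 against 2. The shares were 26.9% on the KIT- side, against 11.6% of all genes, and 7.69% on the KIT+ side, near the 6.75% of all genes. Egr1 was at 3.62 and 7.26 RPKM in KIT- cells and at 1.30 and 1.26 RPKM in KIT+ cells, Socs3 at 10.9 and 21.5 against 4.27 and 3.98 RPKM, and the heat shock gene Hspa1a at 9.02 and 14.7 against 2.26 and 3.72 RPKM. In each the 2 KIT- libraries were apart, with replicate 2 the higher. Dusp2 and Klf4 were 2.17-fold and 1.85-fold higher in KIT+ cells. Cyr61 was at or below 1.22 RPKM in every library and was not called without either KIT+ library (adjusted p 0.11 and 0.088) or KIT- replicate 2 (0.07). The KIT- count was 3 without any of KIT- replicate 2, KIT+ replicate 1 or KIT+ replicate 2. The part of handling in the results was not tested.

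One group outside the lists was noticed after the values were seen. The guanylate-binding proteins are interferon-inducible GTPases of immune defence. Their 10 Gbp genes summed to 87.1 and 109.7 RPKM in KIT- cells and to 9.72 and 7.56 RPKM in KIT+ cells. Of the 10, 5 were called higher in KIT- cells, against 11.6% of all genes. Gbp2 was at 51.6 and 72.8 RPKM in KIT- cells and at 4.35 and 2.39 RPKM in KIT+ cells, and Gbp3 at 24.0 and 22.0 against 1.85 and 1.71 RPKM. The fractions were far apart in both genes. Lymphocyte markers were near 0 in all 4 libraries, with a summed level of 0.257 to 2.18 RPKM over 12 genes. Macrophage genes were lower in the KIT- libraries than in the KIT+ libraries. Sertoli genes were higher there, with a summed level of 77.7 and 38.6 RPKM in KIT- cells against 5.93 and 18.0 RPKM in KIT+ cells. The source of the Gbp RNAs was not tested.

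Markers of later germ cells had the largest median difference of the 32 lists. Of 39 tested spermatocyte and spermatid genes, 27 were called higher in KIT- cells (69.2%, against 11.6% of all genes) and 1 higher in KIT+ cells (2.56%, against 6.75%). The median was -2.13. Tnp1, a transition protein of condensing spermatids, was at 155 and 58.0 RPKM in KIT- cells and at 2.10 and 1.62 RPKM in KIT+ cells (33.7-fold higher in KIT- cells). Prm2, a protamine, was at 187 and 80.0 against 3.94 and 5.86 RPKM, Gsg1 at 125 and 82.2 against 2.80 and 3.88 RPKM, and Tnp2 at 64.2 and 54.7 against 2.37 and 1.57 RPKM. KIT- replicate 1 was the highest in each. Prm1 was at 8.10 and 12.5 against 0.0720 and 0.306 RPKM, with replicate 2 the higher. Ropn1, a sperm tail protein, was at 4.72 and 3.45 RPKM in KIT- cells and listed at 0 in both KIT+ libraries. The exception was Ccna1, a meiotic cyclin, 2.20-fold higher in KIT+ cells, which was not called without KIT+ replicate 1 or 2 (adjusted p 0.072 and 0.065). The same list summed to 287 and 191 RPKM in KIT- cells of 8 months and to 73.1 RPKM in KIT+ cells. The source of these RNAs was not tested.

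Of 18 Sertoli genes 5 were called higher in KIT- cells (27.8%, against 11.6% of all genes), fewer without KIT+ replicate 1. The median was -0.56, and 16 of the 18 had a value below 0. Their summed level was 77.7 and 38.6 RPKM in KIT- cells and 5.93 and 18.0 RPKM in KIT+ cells. The defining genes Sox9 and Amh were at or below 0.204 RPKM in every library. Cst9 and Cst12, cystatins, were higher in KIT- cells and not called without KIT+ replicate 1 (adjusted p 0.12 and 0.1), and Cst9 ranged from 0.344 to 4.17 RPKM between the KIT+ libraries. Leydig genes had 1 of 12 called, Scarb1, higher in KIT+ cells (8.33%, against 6.75% of all genes), and 9 of the 12 had a value below 0. Scarb1 lost its call without either KIT+ library, and calls on the KIT- side appeared without KIT- replicate 2. The list summed to 28.7 and 9.92 RPKM in KIT- cells against 14.3 and 19.6 RPKM in KIT+ cells. Peritubular myoid genes had 2 of 8 higher in KIT- cells, Myl9 and Tagln, neither called without KIT+ replicate 1 (0.059 and 0.08), and endothelial genes 1 of 11 in each direction. Mast cell, lymphocyte, red blood cell and oocyte lists had 0 calls of 3, 5, 3 and 12 tested (limma, with 2 oocyte genes and 0 of the others with an unadjusted p up to 0.05), and the defining mast cell genes Tpsb2 and Mcpt4 were listed at 0 in all 4 libraries.

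Macrophage markers were on the KIT+ side, 10 of 23 called higher (43.5%, against 6.75% of all genes) and 1 lower (4.35%, against 11.6%). Lyz2, lysozyme, was at 0.849 and 0.0453 RPKM in KIT- cells and at 7.32 and 20.6 RPKM in KIT+ cells, Cd74, of antigen presentation, at 1.85 and 0.0422 against 6.28 and 33.3 RPKM, and Csf1r, the receptor that defines the lineage, at 0.0194 and 0.0171 against 0.766 and 1.55 RPKM. KIT+ replicate 2 was the highest in each. The list's summed level, 139.5 RPKM in that library and 34.8 RPKM in KIT+ replicate 1, was 9.78 to 14.5 RPKM in the libraries of 8 months. The count of 10 was 4 without KIT+ replicate 2, 3 without KIT- replicate 2 and 15 without KIT+ replicate 1. Emr1 and Cd74 were not called without KIT+ replicate 2 (adjusted p 0.19 and 0.051), and Aif1, lower in KIT+ cells, was not called without KIT+ replicate 1 (0.1).

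**Figure D4:**
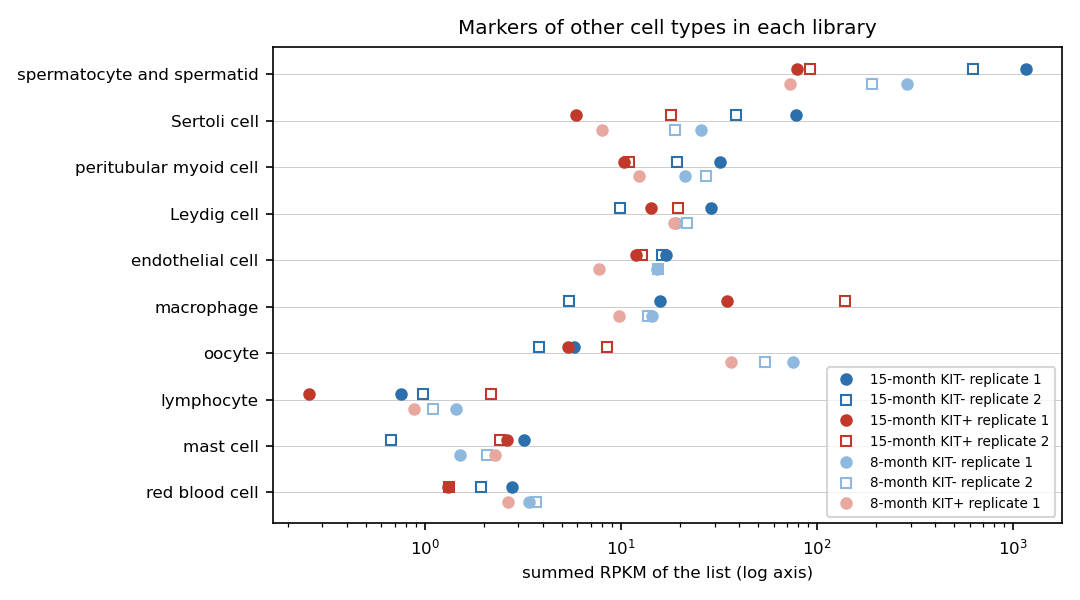
Summed RPKM of each list of cell type markers (log axis) in each library, with 15-month libraries in dark and 8-month libraries in pale colours (blue KIT-, red KIT+, filled circles replicate 1, open squares replicate 2). Spermatocyte and spermatid genes are at 1165 and 627 RPKM in the 15-month KIT- libraries and at 79.2 and 92.4 RPKM in the KIT+ libraries, and macrophage genes reach 139.5 RPKM in 15-month KIT+ replicate 2.

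The comparison with 8 months asked whether the KIT effect differs with age. At 8 months, where KIT+ cells are 1 library, 1289 genes (7%) were called higher in KIT+ cells and 1261 (6.85%) higher in KIT- cells. The ages share no library. Of the genes higher in KIT+ cells at 15 months 711 were called the same way at 8 months, 57.2% of the 15-month list and 55.2% of the 8-month list. Of those higher in KIT- cells 888 were, 41.7% and 70.4%. The sign of the difference was the same at both ages for 94.7% and 95.1% of all genes of the 2 lists, those called at both ages included, and 1 and 2 genes were called in the opposite direction. The median log2 difference of the KIT+ list was 0.85 at 15 months and 0.84 at 8 months, and that of the KIT- list -1.05 and -0.76, where the list was chosen for its 15-month values.

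By function, 22 of the 28 mitosis genes, 18 of the 23 replication genes and 9 of the 12 genes of differentiating spermatogonia were also called higher in KIT+ cells at 8 months. On the KIT- side 14 of the 18 GDNF pathway and stem cell genes and 12 of the 12 progenitor genes were also called at 8 months. Sharing varied among the other lists, where 57.2% of all KIT+ calls and 41.7% of all KIT- calls were shared. Also higher in KIT+ cells at 8 months were 3 of 7 retinoic acid genes, 2 of 9 TGF-beta and BMP genes and 2 of 7 oxidative phosphorylation genes. So were 5 of 5 glycolysis genes and 7 of 8 genes of the G1 and E2F list. Also higher in KIT- cells were 6 of 11 piRNA and germ granule genes and 1 of 6 meiosis genes. So were 6 of 8 TGF-beta and BMP genes, 9 of 10 glycolysis genes and 9 of 10 adhesion genes. Spermatocyte and spermatid genes were called higher in KIT- cells for 27 genes at 15 months and 11 at 8 months, and macrophage genes higher in KIT+ cells for 10 and 0.

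The difference between the 2 effects passed the test for 18 genes (0.0978%), 16 with a lower and 2 with a higher KIT+ to KIT- ratio at 15 months. Of the 16, Cmtm2a, a chemokine-like testis gene, was at 5.71 and 6.41 RPKM in KIT- cells and at 0.0263 and 0.224 RPKM in KIT+ cells at 15 months, and at 0.510, 0.328 and 0.226 RPKM in the 3 libraries of 8 months. Cntnap5b, a contactin-associated protein, was at 2.35 and 2.56 RPKM in the 15-month KIT- libraries and at or below 0.211 RPKM in the others. SNORA17 was above 0 only in the 15-month KIT- libraries among these 7. Cmtm2a and Ropn1 are on the list of spermatocyte and spermatid genes, whose summed level was 1165 and 627 RPKM in KIT- cells of 15 months and 287 and 191 RPKM in those of 8 months, and its part in these differences was not tested. The sign turned for Hist1h3h, a histone H3 gene on chromosome 13, at 5.30 and 13.5 RPKM in KIT- cells and at 133 and 142 RPKM in KIT+ cells of 15 months, against 85.2 and 82.7 RPKM in KIT- cells and 47.9 RPKM in KIT+ cells of 8 months. It also turned for a 7SK copy on chromosome 2, listed at 0 in both 15-month KIT- libraries. Hist1h3h and 7SK have near-identical copies elsewhere, so their reads are uncertain. The count of 18 was 120 without KIT- replicate 1, 206 without KIT- replicate 2, 11 without KIT+ replicate 1 and 4 without KIT+ replicate 2, and 0 with a filter of a mean of at least 1 RPKM (limma, 1281 with an unadjusted p up to 0.05).

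**Figure D5:**
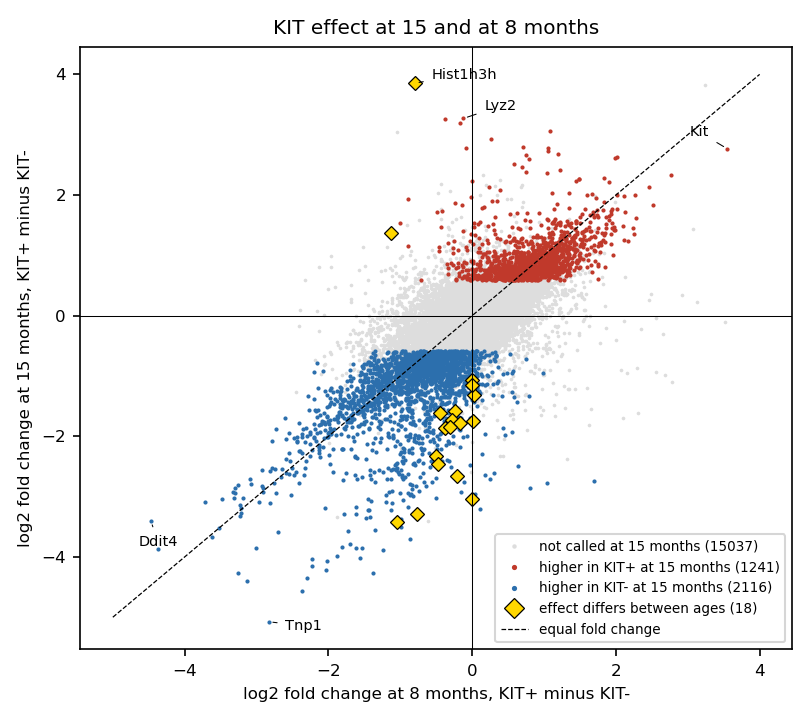
The log2 fold change, KIT+ minus KIT-, of each tested gene at 8 months (x axis) and at 15 months (y axis), with genes called at 15 months in red and blue, the 18 genes whose effect differed between ages as yellow diamonds, and equality as a dashed line. Most called genes lie in the quadrants of equal sign (94.7% and 95.1%), and 16 of the 18 diamonds lie below the dashed line.

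The KIT effect at 15 months differed from that at 6 days for 710 genes (3.86%), 169 with a higher and 541 with a lower KIT+ to KIT- ratio at 15 months. They included 18 spermatocyte and spermatid genes, all with a lower ratio at 15 months, such as Tnp1 (-5.23, the log2 KIT effect at 15 months minus that at 6 days), Tnp2 (-4.25) and Prm2 (-4.19). They also included 12 genes of DNA replication, 11 of mitosis, 6 of the GDNF pathway and stem cell list and 6 progenitor genes. Among the genes named above, the ratio was also lower at 15 months for Gbp2 (-3.39), Gbp3 (-2.66), Igfbp6 (-2.47), Rin2 (-2.39) and Ret (-1.94), and higher for Plk1 (1.09), Mcm2 (0.91) and Top2a (0.90), which are examples and not the whole set. It was not shown to differ for Kit, Stra8 or Cdk2. The count of 710 was 1768 without KIT- replicate 1, 1261 without KIT- replicate 2, 241 without KIT+ replicate 1 and 209 without KIT+ replicate 2.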

How the data were processed

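RNA was sequenced from cells sorted as Oct4-GFP+ in 11 libraries, each with its own table, and groups and replicate numbers were taken from the sample labels. The authors depleted ribosomal RNA, trimmed the reads, mapped them to the mouse build mm9, counted them on Ensembl genes and deposited RPKM values, with no raw counts used here. The processing notes list RSEM and Trim Galore, while the study's methods name featureCounts and Trimmomatic, and the use of strand is not given in the sources used here, so reads of overlapping antisense genes cannot be told apart. Per the methods the cells of each population were sorted in independent experiments, which make the replicates. Whether same-numbered KIT+ and KIT- libraries came from the same experiment is not given, nor whether animals were pooled.

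RPKM multiplied by exon length gave whole reads within 0.05 for 98.1% to 98.3% of values, which gave totals of 12238327 to 76756532 reads per library. Of 37991 identifiers 786 were not in the annotation and were left out. The 18412 genes with at least 10 reads in at least 2 libraries were fitted with limma 3.58.1 in R 4.3.3 (trend on log2(RPKM + 1), 11 libraries, 6 group means, residual degrees of freedom 5), and changes on that log2(RPKM + 1) scale understate the fold of low genes. A call needed a Benjamini-Hochberg adjusted p up to 0.05 together with a change of 1.5-fold or more. On simulated data for the 15-month comparison 59% of 100 genes changed 4-fold and 4% of 100 genes changed 2-fold were recovered over 18412 genes. There 0 unchanged genes were called. Far fewer genes changed there than were called in the data, so these shares do not measure recovery in this comparison.

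The comparison and the 32 gene lists (1051 symbols, 14 not found) were chosen with earlier results of these data known. Named genes were Kit and Pou5f1, and in each direction the 10 called genes lowest in p. Those 10 were taken from called genes without overlap between the fractions, a condition that every called gene met. Also named were up to 4 called members of each list in each direction, the first 4 genes of each cell type list and genes singled out by the study. For 15 against 8 months the 3 genes lowest in p either way were named. Alternatives were another pseudocount (0.1), a filter of a mean of at least 1 RPKM, no filter, the compared libraries alone, a replicate block, voom weights on the recovered reads, median-of-ratios scaling, leaving out mitochondrial genes, leaving out each 15-month library, and the adjusted p alone. Promoter letters came from RefSeq on GRCm38.p6. Python 3.11.15, pandas 2.3.3 and matplotlib 3.10.9 made the tables and plots. Results for a few genes are not reported here.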

Additional observations from a re-analysis of the deposited data

Results flagged for a closer look

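The KIT effect differed between 15 and 8 months for 18 genes, and between 15 months and 6 days for 710 genes, by the test of the difference itself in the fit to all 11 libraries. The genes of the first set with named values were as follows, each as the log2 KIT effect at 15 months minus that at 8 months. SNORA17 had a difference of -3.04, Cmtm2a of -2.45, Ropn1 of -1.83 and Cntnap5b of -1.60. A 7SK copy had a difference of 2.50 and Hist1h3h of 4.65. The 8-month KIT+ group is 1 library, so its spread is taken from the other groups.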

How the results depend on the processing

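The counts of genes higher in KIT+ cells (1243) and in KIT- cells (2132) stayed within 1.5 times of these values with another pseudocount, either other filter, voom weights, both other scalings and the adjusted p alone. With only the 4 libraries compared they were 0 and 0, where fewer libraries estimate the spread. Leaving out 1 library gave 680 to 1581 and 1256 to 2575. The 18 genes that differed between 15 and 8 months became 1 with a pseudocount of 0.1, 0 at a mean of at least 1 RPKM, 152 with no filter, 0 with only the libraries compared, 2 with voom weights, 10 with median-of-ratios scaling, 5 without mitochondrial genes and 4 to 206 without 1 library. The 710 that differed from 6 days became 373 with only the libraries compared and 209 to 1768 without 1 library. The cause of these moves was not tested.

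With the replicate number as a block the 4 counts were 615, 1186, 0 and 0 (for the last 2, limma gave 1359 and 2754 with an unadjusted p up to 0.05). Same-numbered libraries deviated from their group means with a correlation of -0.06 at 15 months and 0.05 at 6 days. These values do not show that the numbers pair the samples, and they cannot exclude it.

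Of 162 called genes named in the text 0 changed direction under any alternative, which was largely fixed in advance. The fractions did not overlap in any called gene, so leaving out 1 library could not turn its sign. No filter, the 4 libraries alone and the replicate block leave the log2 difference itself unchanged. Calls were lost for 41 with the replicate block, 37 without KIT+ replicate 1, 35 without KIT+ replicate 2, 20 without KIT- replicate 2, 9 without KIT- replicate 1 and all 162 with the 4 libraries alone. With 2 libraries a fraction, the p-values rest on a spread estimated over all 11 libraries, which may be partly technical. In simulated data 2-fold changes were mostly missed. Far fewer genes changed there than were called here, so that share does not measure recovery in these data.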
